A study of Arabidopsis thaliana with 12 samples.

Results

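This section concerns the transcripts that were higher in 35S:LOB-GR seedlings than in wild type whether or not the inducer was given. They were chosen from the measured values. A probe set was taken if its mean log2 value in 35S:LOB-GR exceeded that in wild type by at least 0.7 both under dexamethasone (DEX) and under mock, with the 3 arrays of each genotype not overlapping. Its DEX minus mock difference within 35S:LOB-GR also had to stay under 0.5 in size. Of 22746 probe sets, 114 met these criteria, which is 0.501% of them. After 6 probe sets with symbols starting EXP, UGT or COR were left out, 108 remained, or 0.475%. Of these, 38 carried 1 gene in the array annotation, 3 carried several genes and are not named, and 67 carried none.

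Whole seedlings of Arabidopsis thaliana, 9 days old and of Col-0 background, were profiled on 12 one-colour Affymetrix arrays. The 4 groups were 35S:LOB-GR with 5 µM DEX, 35S:LOB-GR mock, Col wild type with 5 µM DEX and Col wild type mock. All were flooded with MS medium for 4 h, and each group had 3 arrays labelled as biological replicates. The transgene expresses LATERAL ORGAN BOUNDARIES (LOB), joined to the ligand-binding domain of the glucocorticoid receptor (GR), from the constitutive 35S promoter of a plant virus, so its expression is not limited to organ boundaries. The labels do not say how many transgenic lines were used, nor give a sowing or harvest batch, so line, batch and genotype cannot be told apart.

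LOB is a plant-specific DNA-binding protein normally made where a lateral organ joins the stem, and it limits growth there. A GR fusion stays in the cytoplasm, bound by chaperones, and enters the nucleus when a glucocorticoid binds. Several genes described here belong to flavonoid synthesis, the branch of phenylpropanoid metabolism that makes flavonols, which screen UV light, and anthocyanin pigments. In seedlings it is switched on by light and UV-B through the bZIP factor HY5 and its relative HYH.

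Values were RMA summaries on a log2 scale, on which a difference of 1 is a 2-fold change. They ranged from 2.71 to 14.14, and array medians lay between 5.88 and 5.97. In bulk seedlings, more cells of a type and more RNA per cell cannot be told apart. The leaf gene RCA was high on all arrays, between 13.57 and 13.86. Of 5 listed root markers 3 were measured. Their sum on a linear scale, nearly all of it PYK10, lay between 6492 and 7386 in 35S:LOB-GR with DEX, against 4633 and 5384 in Col. Under mock the sums were 5688 to 6582 in 35S:LOB-GR, against 5016 to 5723 in Col. By gene, PYK10 differed by 0.47 (log2) under DEX and 0.15 under mock, EXPA7 by 0.15 and -0.30, and EXPA18 by 0.14 and -0.01. The signs under mock differed between the 3 genes. Limma called PYK10 under DEX (adjusted p = 0.00234) and none of the other values. RCA, 1 of 4 listed leaf markers, lay between 12177 and 12950 in 35S:LOB-GR with DEX, against 13917 and 14508 in Col. Without DEX the bounds were 12621 and 14136 in 35S:LOB-GR, against 13915 and 14879 in Col. The seed gene PAP85, 1 of 5 listed, stayed near the low end of the scale, at 3.59 to 4.14. The part of these shifts in the genotype differences was not tested. The difference between 3' and 5' GAPDH control probe sets was -0.33 ± 0.02 in 35S:LOB-GR under DEX and -0.23 ± 0.11 in Col. Under mock it was -0.29 ± 0.12 in 35S:LOB-GR and -0.19 ± 0.20 in Col (log2, SD, n = 3). For actin it was 3.16 ± 0.27 in 35S:LOB-GR under DEX and 3.14 ± 0.11 in Col. Without DEX the actin difference was 3.20 ± 0.25 in 35S:LOB-GR and 3.54 ± 0.07 in Col (log2, SD, n = 3). The Col mock arrays, at 3.49 to 3.62, lay above all the other arrays in this measure, and its part in the differences from Col mock was not tested.

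The members differed by a median of 1.14 (log2) under DEX and 0.90 under mock, where the medians over all probe sets were 0.017 and 0.004. These sizes describe the choice and are not a test. The differences reached 3.95 under DEX and 4.05 under mock. At least a 2-fold difference under both treatments was seen for 33 members, 12 of them with 1 gene, and at least a 4-fold difference for 7, of which 2 had 1 gene. Limma called 108 members higher under DEX, against 11.7% of all probe sets, and 105 higher under mock, against 5.76%. Since the rule used both contrasts, nothing is read from these counts. Non-overlap with 35S:LOB-GR above Col under both treatments held for 7.06% of all probe sets.

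**Figure D1:**
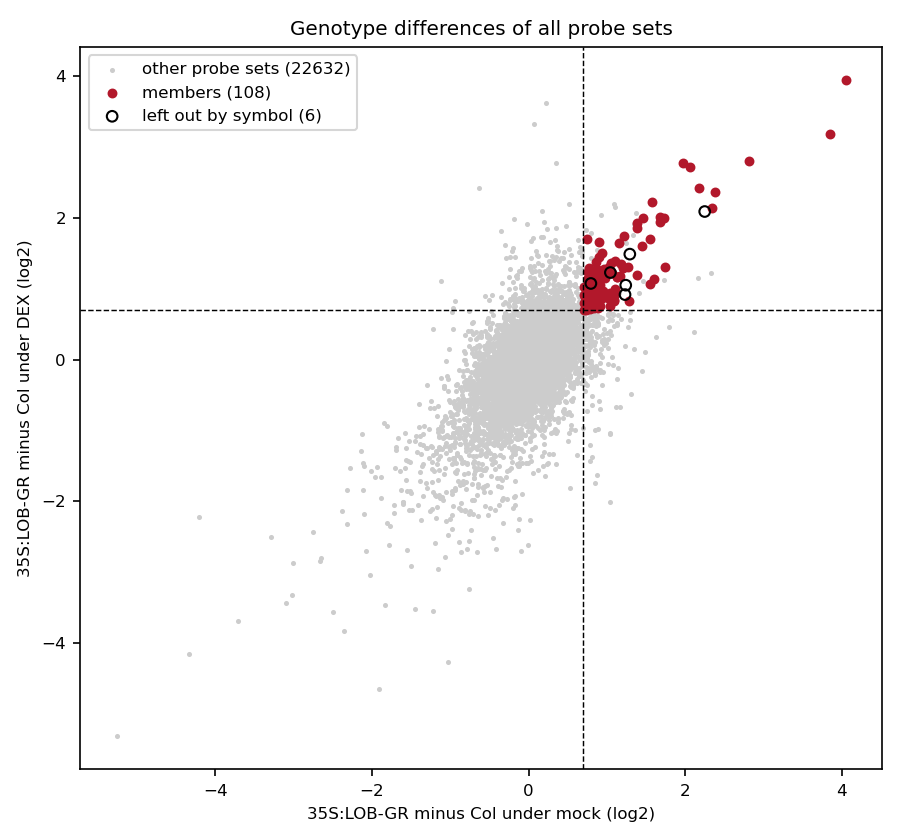
Each point is 1 probe set, with the 35S:LOB-GR minus Col difference under mock on the x axis and under DEX on the y axis (log2). The 108 members (red) lie above the dashed lines at 0.7 by construction, and reach 4.05 on the x axis. Open circles mark the 6 probe sets left out by symbol.

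In a further reading, 1 replicate number of every group was left out in turn. The rule was applied to the other 2 replicates and the difference was then read in the arrays left out. Each round thus gave its own list of probe sets. Of the lists without replicates 1, 2 and 3, 84, 90 and 90 probe sets were also members. The members were chosen with all arrays, so the shares below describe these lists and are not an independent test of the members. Chosen without replicate 1, 99 probe sets were found, and 76 of them (76.8%) had a difference of at least 0.7 under both treatments in replicate 1, against 0.756% of all probe sets. Without replicate 2 these numbers were 56 of 129 (43.4%), against 0.659%, and without replicate 3 they were 71 of 119 (59.7%), against 0.624%. Both differences were above 0 in the replicate left out for 98, 128 and 116 of the chosen probe sets, or 99.0%, 99.2% and 97.5%, against 30.2%, 30.6% and 33.0% of all. In the arrays left out the median difference was 1.07 to 1.17 under DEX and 0.72 to 1.06 under mock. Replicate 2 kept the fewest at 0.7.

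The rule's threshold cuts a continuous range. The nearest one-gene members inside were AT1G67860 (0.70 under DEX and 0.70 under mock), AT2G18940 (0.71 and 0.78) and AT1G52590 (1.02 and 0.71). Just outside lay AT2G36885 (0.890 under DEX and 0.698 under mock), AT5G46270 (0.866 and 0.696) and THIC, a thiamine synthesis enzyme (0.696 and 0.870). Between 0.6 and 0.7 there were 28 one-gene probe sets that met the other criteria, and between 0.7 and 0.8 there were 14 one-gene members.

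**Figure D2:**
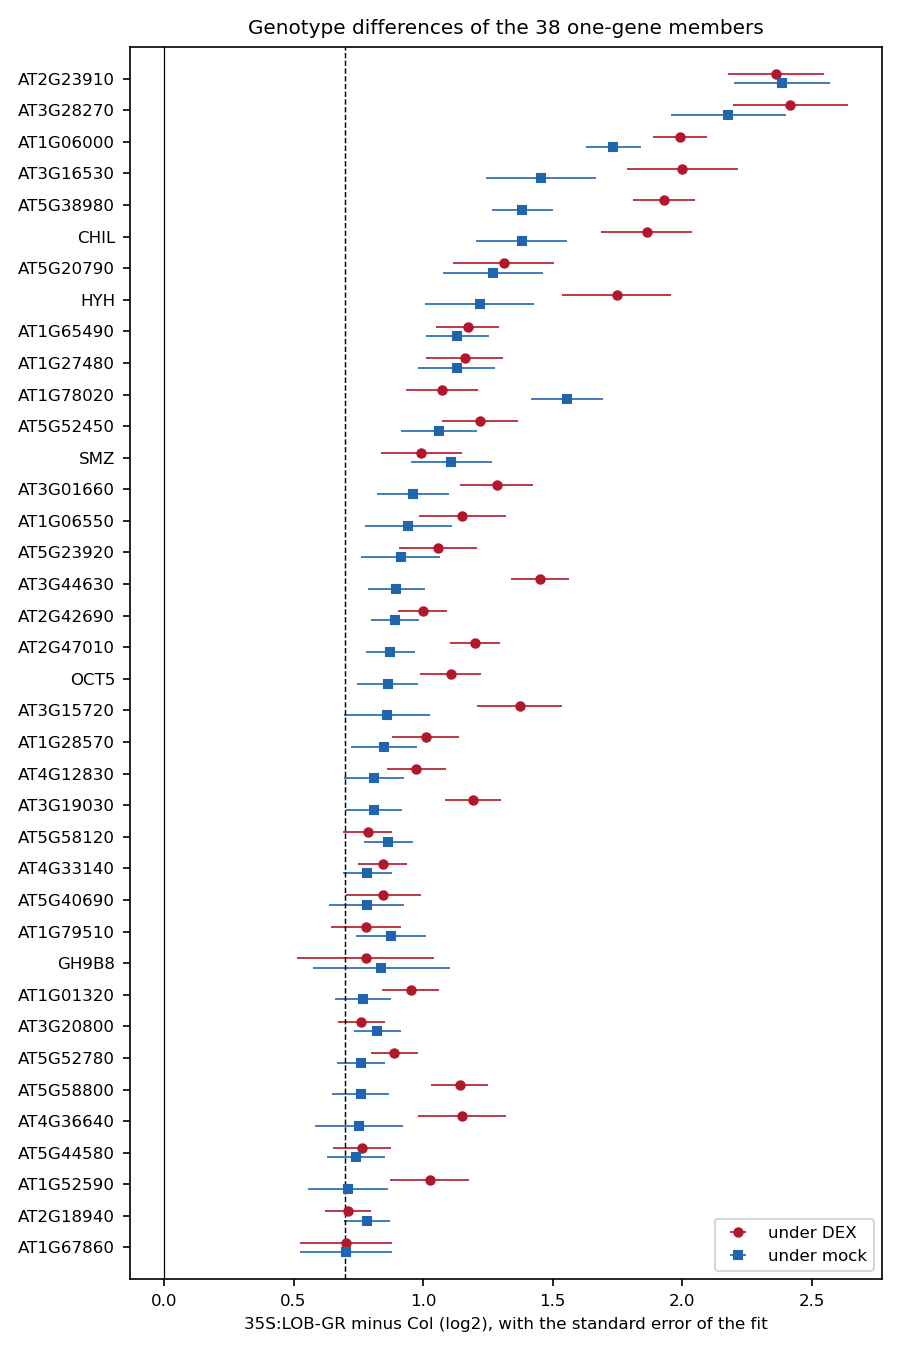
The 35S:LOB-GR minus Col difference (log2) of the 38 one-gene members under DEX (red circles) and under mock (blue squares), with the standard error of the limma fit and the rule's limit of 0.7 as a dashed line. The differences run from 0.70 to 2.42 under DEX and from 0.70 to 2.39 under mock.

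The genes with known roles are described first for flavonoid synthesis. AT1G06000 encodes a rhamnosyltransferase that acts on flavonols. It stayed in the set because the annotation lists it by locus and not by a UGT symbol. Its values were 9.11, 8.90 and 9.04 in 35S:LOB-GR under DEX, against 7.11, 6.99 and 6.97 in Col. Under mock they were 9.18, 8.76 and 8.85 in 35S:LOB-GR, against 7.16, 7.24 and 7.19 in Col. The lowest 35S:LOB-GR array lay more than 1 log2 unit above the highest Col array, and the differences were 3.98-fold under DEX and 3.33-fold under mock.

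CHIL encodes the non-catalytic chalcone isomerase-like protein that raises flavonoid output. It had 8.09, 8.71 and 8.51 in 35S:LOB-GR under DEX, against 6.60, 6.62 and 6.51 in Col, and 8.61, 8.15 and 7.85 in 35S:LOB-GR under mock, against 6.64, 7.02 and 6.80 in Col. These are 3.64-fold and 2.60-fold differences. HYH encodes the HY5-related light signalling factor, and had 5.46, 6.29 and 6.06 in 35S:LOB-GR under DEX, against 4.16, 4.07 and 4.34 in Col. Under mock its values were 6.20, 5.42 and 5.45 in 35S:LOB-GR, against 4.41, 4.68 and 4.32 in Col. In CHIL and HYH replicate 1 was the lowest of the 35S:LOB-GR arrays under DEX and the highest under mock. This order was not particular to them, and AT2G23910, AT3G28270 and AT3G16530 had it too. Among all members replicate 1 of 35S:LOB-GR was the lowest under DEX for 47 and the highest under mock for 56. The Col values of HYH lie near the low end of the scale, where RMA compresses differences.

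The rule left out 2 more flavonol glycosyltransferases. UGT78D2, which adds glucose to flavonols and anthocyanidins, averaged 8.38 ± 0.12 in 35S:LOB-GR under DEX and 6.89 ± 0.06 in Col, with 8.21 ± 0.11 and 6.91 ± 0.05 under mock (log2, SD, n = 3). UGT78D1, a flavonol rhamnosyltransferase, averaged 8.50 ± 0.12 and 7.27 ± 0.08 under DEX, and 8.52 ± 0.21 and 7.47 ± 0.04 under mock. Of a list of 23 phenylpropanoid and flavonoid enzymes, drawn up after the members were known, 8 were measured. Of these 8, CHIL, AT1G06000, UGT78D2 and UGT78D1 met the rule's criteria, so their differences were fixed by the choice. Limma called 1 of the other 4 higher in 35S:LOB-GR under DEX and 0 of 4 under mock (1 and 0 of the 4 had an unadjusted p under 0.05), beside 21.5% and 10.9% of all probe sets called in either direction. DFR, the first enzyme after the flavonol branch point, was at 0.24 under DEX and 0.04 under mock (limma adjusted p = 0.289 and 0.903). UF3GT, which glycosylates anthocyanins, was at 0.175 and 0.18 (limma adjusted p = 0.273 and 0.342), and BAN, an enzyme of seed coat tannins, at -0.04 and -0.01 (limma adjusted p = 0.827 and 0.977). AT4G14090, an anthocyanin glucosyltransferase, was higher under DEX by 0.49 (limma adjusted p = 0.00324) and at -0.05 under mock (limma adjusted p = 0.861). HYH was the 1 measured gene of 17 listed regulators.

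**Figure D3:**
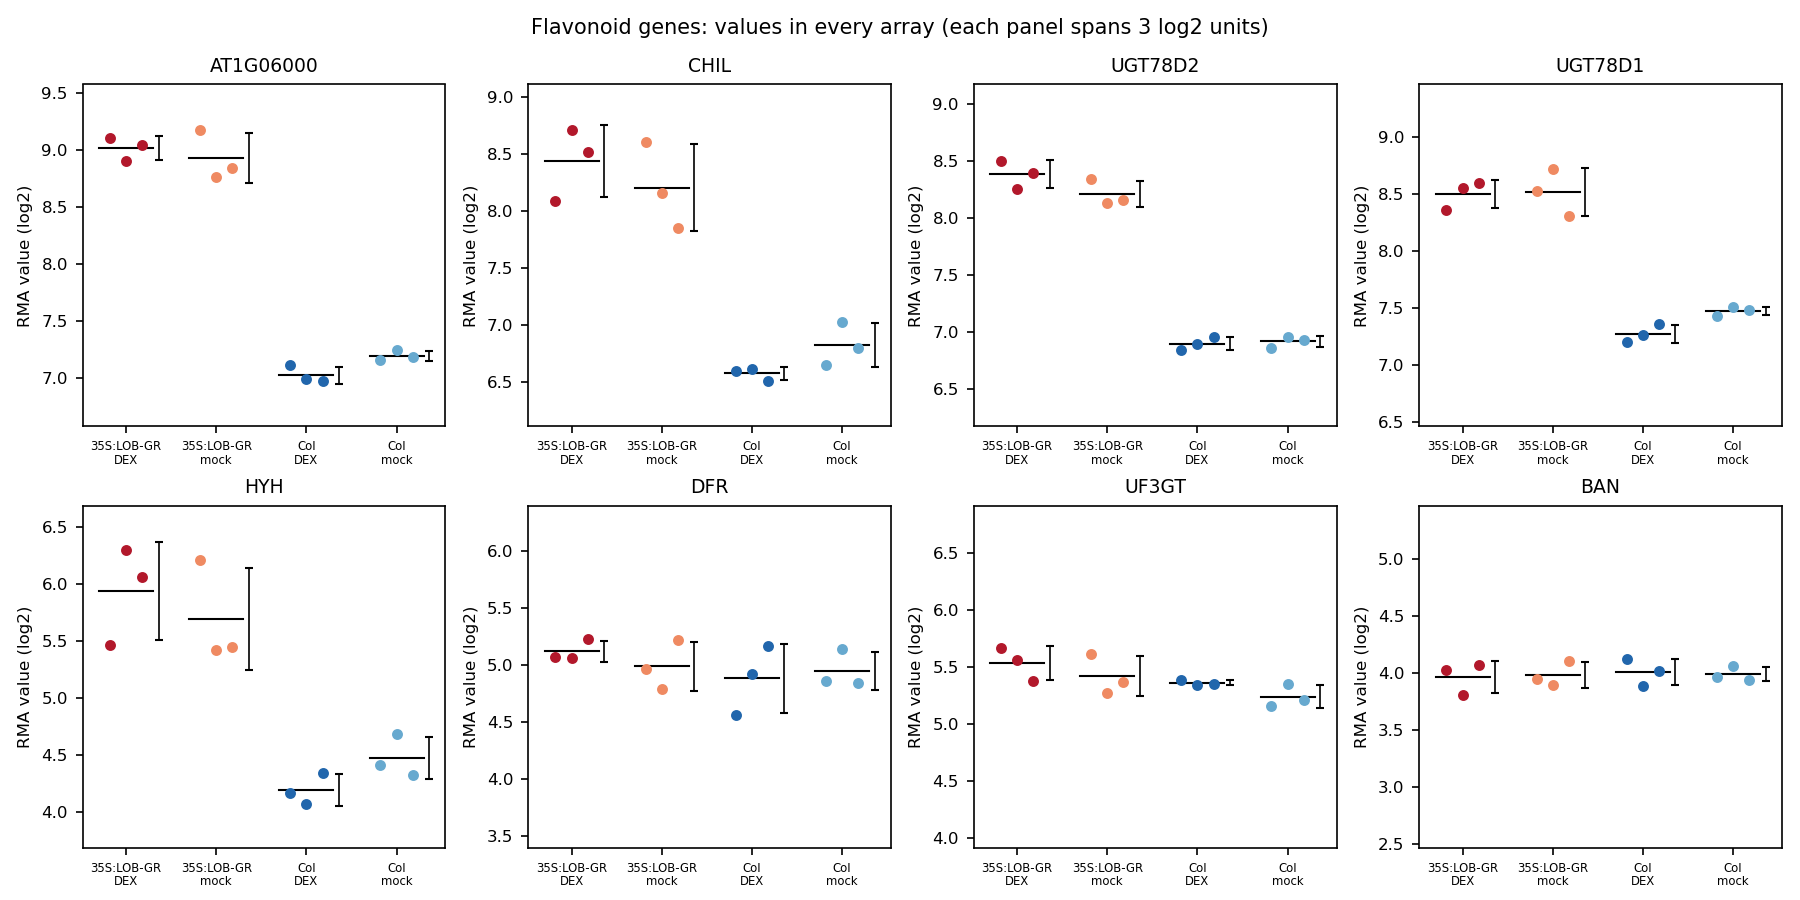
RMA values (log2) in every array for 8 flavonoid genes, with the 4 groups along the x axis, points for arrays, lines for group means and bars for ± 1 SD beside them. Each panel spans 3 log2 units. The 35S:LOB-GR and Col arrays are apart for AT1G06000, CHIL, UGT78D2, UGT78D1 and HYH, and overlap for DFR, UF3GT and BAN. The measured enzyme gene AT4G14090 is not shown, and its arrays were apart under DEX and overlapped under mock.

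The 2 largest differences among one-gene members were in genes outside this pathway. AT2G23910 encodes a predicted NAD(P)-binding protein related to cinnamoyl-CoA reductase, and had 7.20, 7.48 and 7.32 in 35S:LOB-GR under DEX, against 5.13, 4.86 and 4.92 in Col. Under mock it had 7.62, 6.99 and 6.84, against 4.37, 4.95 and 4.97. That is 5.14-fold under DEX and 5.23-fold under mock, almost the same size. AT3G28270 is a member of the DUF677 family related to the membrane protein At14a. It had 7.19, 7.74 and 7.31 in 35S:LOB-GR under DEX, against 4.95, 4.96 and 5.08 in Col. Under mock it had 7.84, 6.80 and 7.69, against 5.00, 5.59 and 5.20. Its mock values in 35S:LOB-GR were more scattered (SD 0.56) than those of any other one-gene member in that group.

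Other enzymes followed with smaller differences. AT1G06550, an enoyl-CoA hydratase-like protein, had 7.07, 7.72 and 7.51 in 35S:LOB-GR under DEX, against 6.03, 6.43 and 6.39 in Col, and 7.75, 7.46 and 7.13 under mock, against 6.54, 6.48 and 6.49. The predicted methyltransferase AT3G01660 had 7.80, 7.94 and 7.75 under DEX, against 6.68, 6.51 and 6.44, and 7.76, 7.10 and 7.70 under mock, against 6.56, 6.63 and 6.49. In both genes the Col mock arrays were tightly grouped and the 35S:LOB-GR mock arrays were not. AT4G33140, a HAD-family hydrolase, differed by 0.84 under DEX and 0.78 under mock.

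**Figure D4:**
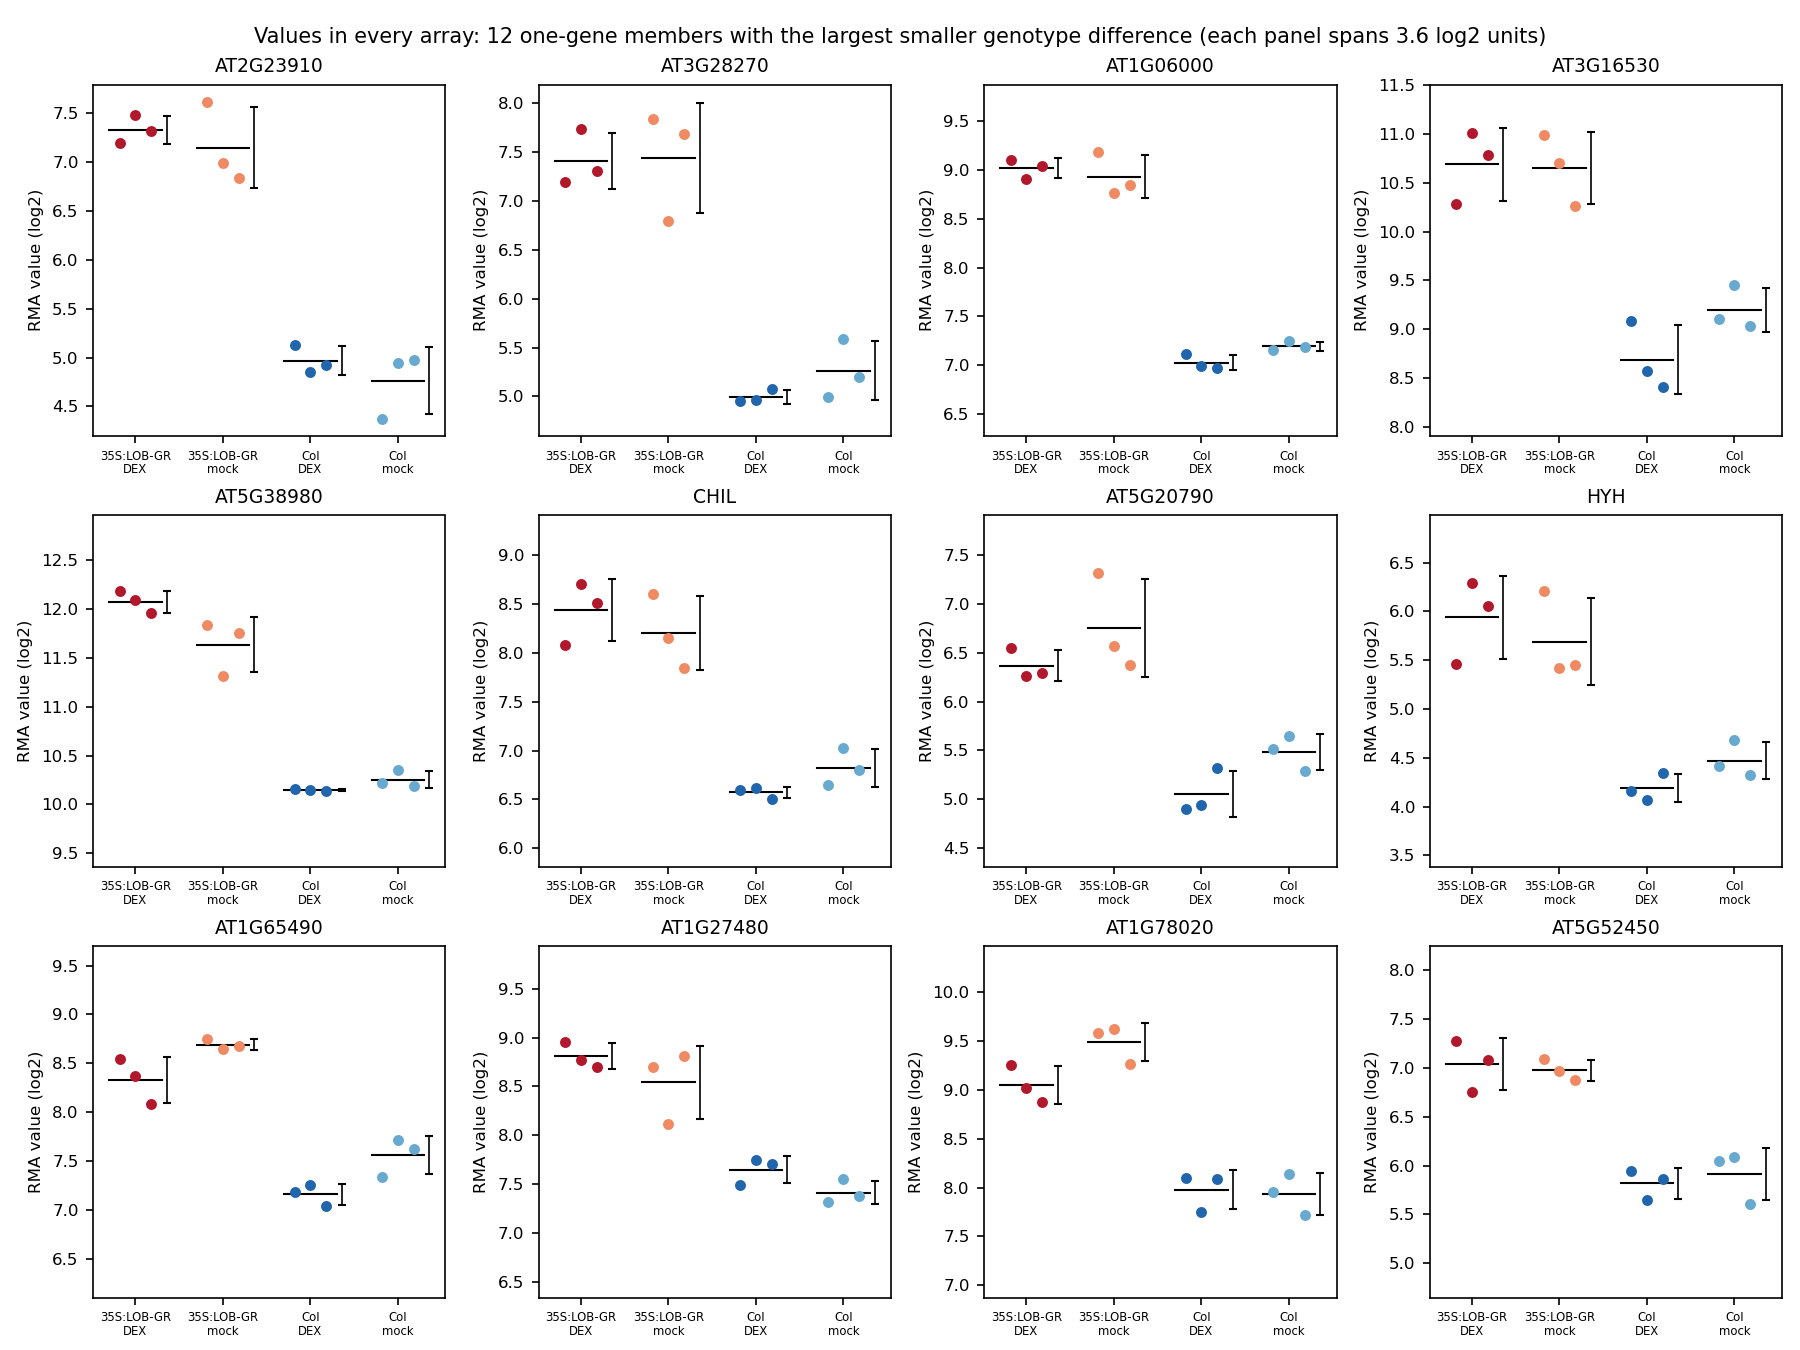
RMA values (log2) in every array for the 12 one-gene members whose smaller genotype difference was largest, with groups along the x axis, points for arrays, lines for means and bars for ± 1 SD. Each panel spans 3.6 log2 units, and in each panel both 35S:LOB-GR groups lie above both Col groups.

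Genes of defence and recognition were among the members. AT3G16530 encodes a legume-type lectin known to respond to chitin. It had 10.28, 11.01 and 10.79 in 35S:LOB-GR under DEX, against 9.09, 8.57 and 8.41 in Col. Under mock it had 10.99, 10.71 and 10.26 in 35S:LOB-GR, against 9.10, 9.45 and 9.03 in Col. AT3G44630, an intracellular immune receptor of the TIR-NBS-LRR class, differed by 1.45 under DEX and 0.90 under mock. Another receptor of that class, AT5G58120, differed by 0.79 and 0.87. The MATE family transporter AT5G52450, of a family that exports metabolites and toxins, had 7.28, 6.75 and 7.08 in 35S:LOB-GR under DEX, against 5.94, 5.64 and 5.86 in Col, and 7.09, 6.96 and 6.88 under mock, against 6.05, 6.09 and 5.61. OCT5, an organic cation and carnitine transporter, differed by 1.11 and 0.86.

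Another group of 5 genes was placed loosely under lipid metabolism and transfer, with differences of 0.97 to 1.16 under DEX and 0.75 to 1.13 under mock. AT1G27480, an acyltransferase-like lipase of the LCAT family, had 8.96, 8.77 and 8.70 in 35S:LOB-GR under DEX, against 7.49, 7.75 and 7.71 in Col. Under mock it had 8.70, 8.12 and 8.82, against 7.31, 7.55 and 7.38, so that replicate 2 was the low array of 35S:LOB-GR. The others were the phospholipase-like AT2G42690 (1.00 under DEX and 0.89 under mock), the GDSL lipase AT1G28570 (1.01 and 0.85), the alpha/beta hydrolase AT4G12830 (0.97 and 0.81) and the Sec14-like lipid transfer protein AT4G36640 (1.15 and 0.75).

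For the cell wall, GH9B8, an endoglucanase of the cellulase family, and AT3G15720, a pectin lyase-like polygalacturonase, were members. GH9B8 had 7.23, 5.97 and 6.09 in 35S:LOB-GR under DEX, against 5.63, 5.46 and 5.85 in Col, and 6.02, 6.75 and 6.56 under mock, against 5.68, 5.33 and 5.80. The DEX difference of GH9B8 rested on 1 array, since it was 0.78 with all arrays and 0.38 without 35S:LOB-GR DEX replicate 1. Limma called GH9B8 under DEX (adjusted p = 0.0475) and did not call its larger mock difference of 0.84 (adjusted p = 0.0555). The standard error of the fit was 0.26 for both. The rule used both contrasts, so these calls are not a test and do not set DEX apart from mock. AT3G15720 differed by 1.37 under DEX and 0.86 under mock. The expansins EXPA16 and EXPA20, which loosen walls, met the criteria but were left out by symbol. They differed by 0.92 and 1.08 under DEX and by 1.23 and 0.80 under mock.

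Regulatory genes besides HYH were SMZ, AT1G78020 and AT3G20800. SMZ encodes an AP2-type repressor of flowering, and had 7.19, 6.56 and 6.80 in 35S:LOB-GR under DEX, against 5.70, 6.12 and 5.74 in Col. Under mock it had 6.91, 6.72 and 7.00, against 5.58, 5.74 and 5.98. AT1G78020, of the FLZ zinc finger family whose proteins bind the energy sensor SnRK1, had 9.26, 9.02 and 8.88 under DEX, against 8.10, 7.75 and 8.09, and 9.58, 9.62 and 9.27 under mock, against 7.95, 8.14 and 7.72. It was one of the members with a larger difference under mock, 1.56, than under DEX, 1.07. AT3G20800, a homologue of the Rcd1 subunit of the CCR4-NOT complex that shortens mRNA tails, differed by 0.76 and 0.82.

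Genes with plastid or redox roles lay close to the threshold under mock, with differences of 0.71 to 0.78. Under DEX they ran from 0.71 to 1.14. They were AT5G58800, a quinone reductase, AT1G52590, of the DCC thiol-disulfide oxidoreductase family, AT5G52780, related to the photosystem assembly factor PAM68, the pentatricopeptide repeat gene AT2G18940, and the tetratricopeptide repeat gene AT1G01320. AT1G01320 had another one-gene probe set, which was not a member, at 0.62 under DEX and 0.53 under mock. It was the only member gene with a second one-gene probe set.

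Little or no function is given here for 11 one-gene members. AT5G38980 had 12.18, 12.09 and 11.96 in 35S:LOB-GR under DEX, against 10.15, 10.15 and 10.14 in Col, and 11.83, 11.31 and 11.76 under mock, against 10.22, 10.35 and 10.19. In RefSeq's TAIR10.1 gene order on chromosome 5 it is directly next to a gene of the member probe set 249480_s_at, which the annotation assigns to several genes. That probe set had 7.42, 7.29 and 7.40 in 35S:LOB-GR under DEX, against 6.24, 6.08 and 6.66 in Col. Under mock it had 7.41, 7.43 and 7.45, against 6.49, 6.72 and 6.48. No other annotated members lay within 10 genes of each other. By chromosome, from 1 to 5, there were 11, 5, 9, 3 and 10 one-gene members, or 28.9%, 13.2%, 23.7%, 7.9% and 26.3%, beside 25.5%, 16.3%, 20.3%, 14.5% and 22.3% of all one-gene probe sets.

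AT5G20790 had 6.55, 6.26 and 6.29 in 35S:LOB-GR under DEX, against 4.89, 4.94 and 5.32 in Col, and 7.32, 6.57 and 6.37 under mock, against 5.51, 5.65 and 5.29. AT1G65490 had 8.54, 8.37 and 8.08 under DEX, against 7.18, 7.25 and 7.04, and 8.75, 8.64 and 8.68 under mock, against 7.34, 7.72 and 7.62. DEX minus mock for AT5G20790 was -0.39 in 35S:LOB-GR and -0.43 in Col, and for AT1G65490 it was -0.36 and -0.40. None of these responses was called by limma (adjusted p between 0.0796 and 0.377). AT5G23920 had 9.99, 9.63 and 9.51 in 35S:LOB-GR under DEX, against 8.50, 8.80 and 8.65 in Col, and 9.61, 9.27 and 9.71 under mock, against 8.35, 8.83 and 8.67. The rest were AT2G47010, AT3G19030, AT5G40690, AT1G79510, AT5G44580 and AT1G67860, which differed by 0.70 to 0.88 under mock and by at least 0.70 under DEX.

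The unnamed members included the largest differences of all. Probe set 249606_at had 8.18, 8.48 and 8.18 in 35S:LOB-GR under DEX, against 4.23, 4.45 and 4.32 in Col, and 8.20, 7.78 and 8.44 under mock, against 3.98, 4.17 and 4.11. Probe set 257985_at had 9.85, 9.45 and 9.71 under DEX, against 6.06, 6.62 and 6.76, and 9.47, 9.51 and 9.91 under mock, against 5.76, 5.69 and 5.91. The 67 unnamed members had median differences of 1.15 under DEX and 0.93 under mock, close to the 1.12 and 0.87 of the 38 with 1 gene. Named members make up 35.2% of the set, and one-gene probe sets 59.4% of the array.

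The levels of the members spanned most of the scale. Group means lay between 5.33 and 12.40 in 35S:LOB-GR with DEX, against 4.06 and 11.21 in Col. Without DEX they lay between 5.27 and 12.31 in 35S:LOB-GR, against 4.09 and 11.03 in Col. Their median level was 8.29 in 35S:LOB-GR under DEX, against 7.09 in Col, and 8.19 under mock, against 7.17. In Col under mock, where the median over all probe sets was 5.94, only 22 of the 108 lay below that median. In these probe sets the replicates of 35S:LOB-GR scattered more than those of Col. The median SD was 0.172 in 35S:LOB-GR under DEX, against 0.125 in Col, and 0.194 under mock, against 0.126. Over all probe sets it was 0.128 against 0.102 under DEX and 0.114 against 0.104 under mock. Within 35S:LOB-GR under DEX, replicate 1 was the highest array for 43 members and the lowest for 47, so it was an extreme in 83.3% of members and 73.7% of all probe sets. Within 35S:LOB-GR under mock, replicate 1 was the highest for 56 members and replicate 2 the lowest for 57. Under DEX the members thus did not all deviate in the same direction in replicate 1.

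The response to DEX in Col was the contrast that the rule did not name, although the Col arrays entered both genotype differences. The shares below therefore describe the members and are not a test. For this response no member was called by limma, against 13 of all probe sets (0.0572%). At an unadjusted p under 0.05 there were 28 members (25.9%), against 12.7% of all. The median change was -0.10 over the members and 0.006 over all probe sets, and 73 members (67.6%) were below 0, against 48.3% of all. The 3 DEX arrays of Col lay below the 3 mock arrays for 28 members (25.9%, against 10.6% of all) and above them for 9 (8.3%, against 10.3%). Changes ran from -0.77 to 0.70. Among named genes the lowest were AT4G36640 at -0.54 ± 0.17 (SE of the fit, limma adjusted p = 0.201), AT3G16530 at -0.51 ± 0.21 (limma adjusted p = 0.34) and AT5G20790 at -0.43 ± 0.19 (limma adjusted p = 0.377). Array weights gave 6 calls and a fit of the 6 Col arrays alone gave 5, where the calls over all probe sets were 399 and 407. The 13 calls over all probe sets also moved with single arrays, while the members' count stayed at 0. They numbered 141 without 35S:LOB-GR DEX replicate 1, 69 without Col mock replicate 3, 5 without Col mock replicate 2, and 2 without Col mock replicate 1 or any one Col DEX array. Without any one of the other 35S:LOB-GR arrays there were 19 to 24. The Col mock arrays that enter this contrast are those that stood apart in the actin measure.

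**Figure D5:**
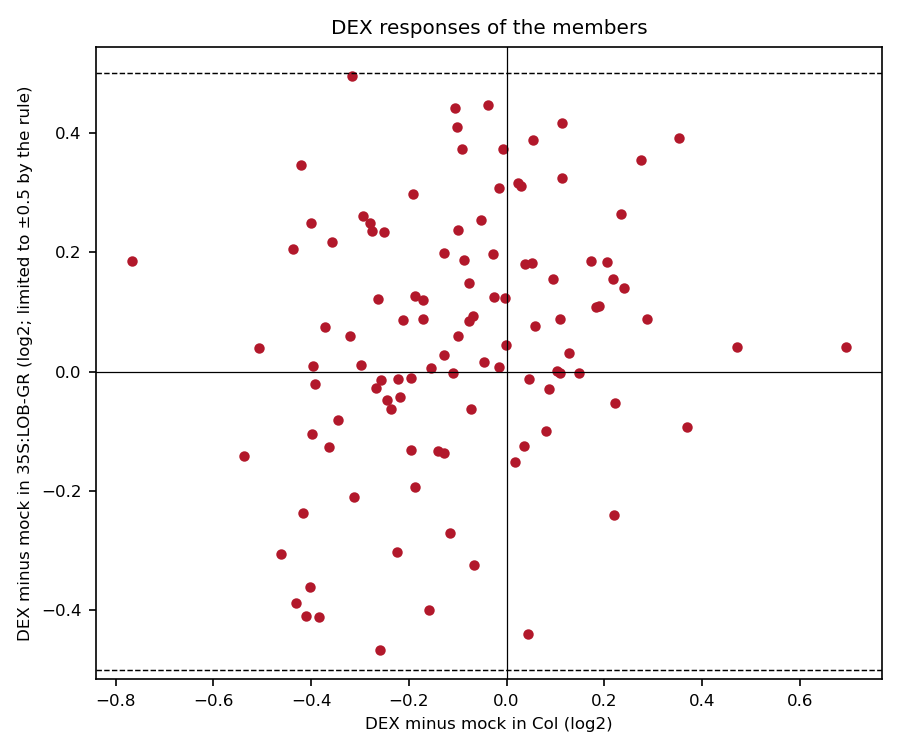
DEX minus mock (log2) in Col on the x axis and in 35S:LOB-GR on the y axis for each of the 108 members. The dashed lines at ± 0.5 are the rule's limit for 35S:LOB-GR. In Col 73 members lie left of 0 and 35 right of it, between -0.77 and 0.70.

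Within 35S:LOB-GR the limit of 0.5 still allowed DEX responses of smaller size. Limma called 6 members higher and 2 lower with DEX, together 7.4% of the members, against 3.97% and 5.99% of all probe sets. Because the rule bounded this contrast, nothing is read from the counts. The named ones were AT5G38980 at 0.44 and AT5G58800 at 0.37, both higher. The genotype difference was larger under DEX than under mock for 78 members and smaller for 30, where 53.0% of all probe sets had the larger value under DEX. The rule used both differences and bounded the 35S:LOB-GR response, so nothing is read from this count either. The difference of the DEX responses, 35S:LOB-GR minus Col, had a median of 0.16 over the members and 0.015 over all probe sets. It was called for 1 member, the unnamed probe set 250207_at, against 4.77% of all probe sets in either direction and 1.82% in the same direction.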

How the data were processed

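The authors deposited 1 table of log2 expression values, and the submitters' processing notes name RMA with no version. RMA subtracts background, gives all arrays one distribution and summarises each probe set, so a shift of most transcripts one way would be reduced, and low values are compressed. All 12 columns matched a sample by accession, and 64 Affymetrix control probe sets were left out. Probe sets were tied to genes by GEO's annotation of the array, and symbols were brought up to date by Entrez number in RefSeq TAIR10.1. All 38 one-gene members matched. These tables give names and loci only, and the roles stated are background knowledge.

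The 12 arrays entered 1 linear model of the 4 groups (limma 3.58.1, R 4.3.3, 8 residual and 6.86 prior degrees of freedom), two-sided, with Benjamini-Hochberg adjustment over 22746 probe sets and calls at an adjusted p under 0.05. The standard errors are those of the fit, and the number of arrays limits precision. The computation of the fit and of the rule was checked on simulated data with independent noise on each array. That check says nothing about the members or about a batch. Nothing says that replicates came from separate sowings, so the spread may be partly technical.

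The members, the gene lists and the grouping by role were chosen with earlier results of these data known. Values in every array were given for the 16 one-gene members with the largest smaller genotype difference and for neighbouring members. They were also given for GH9B8 and unnamed probe sets, and 6 flavonoid genes outside the set were named, all chosen after their values were seen. Alternatives were a replicate block, array centring, repeated quantile normalization, removal of dim probe sets, a trended and robust spread, weighting of arrays, other thresholds and each array left out.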

Additional observations from a re-analysis of the deposited data

Results flagged for a closer look

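The unnamed probe set 250207_at was the 1 member whose DEX responses were called different between the genotypes, which is why it is given here. Its values were 11.20, 11.46 and 11.46 in 35S:LOB-GR under DEX, against 8.60, 8.72 and 8.65 in Col, and 11.33, 11.00 and 11.03 in 35S:LOB-GR under mock, against 9.00, 9.07 and 9.11 in Col. The change with DEX was 0.25 in 35S:LOB-GR and -0.40 in Col, a difference of 0.65 ± 0.15 (SE of the fit, limma adjusted p = 0.0177). With any 1 array left out it stayed called, with limma adjusted p from 0.00493 to 0.0485. The rule bounded the 35S:LOB-GR part of this difference, and the Col arrays entered both genotype differences. The value and its calls with arrays left out are therefore a description and not a test.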

How the results depend on the processing

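The number of members was 257 with a minimum difference of 0.5 and 33 with a minimum of 1. Under the other alternatives it lay between 83 and 128, and with 1 array left out between 98 and 127, of which 93 to 104 were among the 108. The DEX response in Col was called for 6 members with array weights, for 5 with the 6 Col arrays alone and for 0 under the other alternatives run, each array left out included. The difference of responses was called for 2 members with a trended and robust spread, for 3 with array weights, for 0 at an adjusted p under 0.01 and for 1 to 4 with 1 array left out. It was 4 without replicate 1 of 35S:LOB-GR under mock and 4 without replicate 1 under DEX. The share kept in the replicate left out was 58.5% over the 3 rounds together, and 43.4 to 76.8% in single rounds. Median differences of the members moved by less than the spread between arrays under each alternative run.

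Same-numbered arrays of different groups did not deviate together (r above 0.1 in 2 of 18 pairs, from -0.228 to 0.191), so the numbers do not pair the arrays. Among differently numbered arrays r ran from -0.267 to 0.337, the highest between 35S:LOB-GR mock replicate 1 and 35S:LOB-GR DEX replicate 2. The labels give no batch for these arrays, and a structure shared across numbers was not tested. With replicate number as a block the DEX response in Col was called for 0 members and the difference of responses for 1, and 107 and 105 members were called higher under DEX and under mock. Among single genes and lists 0 of the values reversed. Whether GH9B8 was called changed under several alternatives. The call of AT4G36640 under mock was lost without Col mock replicate 1 (0.65). Those of AT1G67860 were lost under DEX without 35S:LOB-GR DEX replicate 2 (0.53) or Col DEX replicate 3 (0.61), and under mock without replicate 1 or 2 of 35S:LOB-GR mock or replicate 1 or 3 of Col mock (0.54 to 0.71).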

Other observations

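None of the 108 members belonged to the 14 gene lists drawn up for this tissue, which held few measured genes. Of 9 measured small heat shock genes from 17, limma called 1 higher and 2 lower in 35S:LOB-GR under DEX, and 1 higher and 1 lower under mock. The mock count fell to 1 call with a replicate block and without several single arrays. The 1 measured gene of 8 for other chaperones was lower under DEX. Of 4 iron deficiency genes from 19, 2 were higher under DEX and none was called under mock, and 1 of the 2 was lost with a replicate block, with repeated quantile normalization and without several single arrays. Of 6 cold and abscisic acid genes from 17, 2 were higher and 2 lower under DEX, and 3 higher and 1 lower under mock. One of those was COR15A, which met the rule's criteria but was left out by symbol. Its values were 7.80, 5.53 and 5.33 in 35S:LOB-GR under DEX, so 1 array stood far above the others, against 3.81, 4.15 and 4.42 in Col. The clock list for afternoon and evening had 1 measured gene of 8, which was lower under both treatments. Neither of 2 jasmonate genes from 10, neither of 2 flavonoid and anthocyanin genes from 7 and not the 1 boundary gene from 11 was called in the genotype comparisons. The leaf and seed markers were not called, and 1 of 3 root markers was higher under DEX. No gene was measured under 1 name for morning clock, salicylic acid defence and aliphatic glucosinolates. Over all probe sets 21.5% were called under DEX and 10.9% under mock.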
